A study of Mus musculus with 34 samples.

Results

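The genes of glycolysis and of the hypoxia response were followed in mouse bone-marrow-derived macrophages, which are macrophages grown in culture from marrow cells. The list held 41 genes, chosen by name: glucose transporters, the enzymes of glycolysis and of the pentose phosphate pathway, the subunits and oxygen sensors of hypoxia-inducible factor (HIF), and well known HIF targets. Probe sets carrying the symbol of exactly 1 gene were found for 34 of the 41, out of 8251 genes with such a probe set on the array, and all 34 passed the filter on low signal. The other 7 (Hk3, Gpi1, Gapdh, Eno1, Slc16a3, Bnip3l and G6pdx) had no such probe set and are not described, apart from the control probes for Gapdh. Where a gene had several probe sets, the one with the highest mean signal stands for it.

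Glycolysis turns glucose into pyruvate and, through lactate dehydrogenase, into lactate, and macrophages activated through Toll-like receptors are known to lean on it. HIF-1 is a pair of proteins, HIF-1alpha (Hif1a) and ARNT, that binds a short DNA element near glycolytic and other hypoxia-responsive genes. Prolyl hydroxylases such as EGLN1 mark HIF-1alpha for destruction when oxygen is present, and in macrophages lipopolysaccharide (LPS), a bacterial cell wall component, also raises Hif1a RNA. IL-10 is an anti-inflammatory cytokine that signals through STAT3.

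The cells had been grown for 7 days and were measured on Affymetrix arrays, as intensities called signal here. Resting cells (4 arrays) came from marrow differentiated in L-cell conditioned medium as the source of CSF-1, and their genotype is not given. Stimulated cells, whose labels name mCSF, were treated for 45 or 180 min with 100 ng/ml of LPS. Their genotypes were IL-10-/-, IL-6-/- and wild type. To some cultures of each genotype 10 ng/ml of IL-10 was added, or, at 45 min, 2 ng/ml of IL-6. Each stimulated group had 2 arrays, called biological replicates in their titles, except IL-6-/- with LPS alone, which had 1 array at each time that was assumed to vary as the others did. Of 34 arrays, 32 fell into 16 groups. The number of mice behind them is not stated, so a p-value reflects only how far replicate arrays varied, which may be technical. Strain and age are not stated either.

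The deleted genes did not check the labels. The Il10 probe set read 2412.5 to 2633.8 in wild type and 5857.9 to 6511.8 in IL-10-/- after 45 min of LPS, and 2700.7 to 3264.7 against 1511.8 to 1532.2 after 180 min. A control probe set for Il10 overlapped between them at 45 min, at 1457.0 to 2213.6 in wild type and 1679.4 to 2108.0 in IL-10-/-. At 180 min it read 2310.2 to 2347.3 against 1034.6 to 1089.4. The Il6 probe set read 209.0 to 222.5 in wild type and 617.8 in IL-6-/- at 45 min, and 2644.8 to 4567.8 against 1014.3 at 180 min. Neither signal was lost in its knockout, and which part of each gene was deleted, or where the probes lie in relation to it, is not stated. Genotypes are therefore given as labelled throughout.

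Every array had been scaled to the same mean, so depth does not differ between arrays in the way it does for reads, and the number of arrays limits the precision. Of 13 macrophage markers on the array, the summed signal was 183000 to 229800 in resting cells and 178700 to 228300 in stimulated cells. Single markers did move: in wild type 1 rose and 2 fell against rest at 45 min. At 180 min 2 rose (Msr1 and Cd14) and 5 fell, with a median of -0.42 (log2). Stromal markers (collagens, fibronectin and others) differed between resting and stimulated cells: their sum over 10 genes was 964.6 to 2686 at rest, 5964 to 11690 at 45 min and 5567 to 10900 at 180 min. In wild type 8 of 9 tested stromal markers rose against rest at each time and 0 fell, with medians of 2.03 and 2.04 (log2), while Thy1 stayed between 9.1 and 105.2 in all grouped arrays. Neutrophil markers, 10 genes, summed to 1408 to 3655 at rest, 587.7 to 1318 at 45 min and 1566 to 9698 at 180 min, and of 7 tested in wild type 2 fell and 0 rose at 45 min (S100a8 and Mmp8) and 2 fell and 1 rose (Lcn2) at 180 min. The ratio of the 3' to the 5' Gapdh control probe set, a sign of RNA quality, was 0.867 to 0.97 at rest, 0.628 to 0.896 at 45 min and 0.614 to 1.09 at 180 min. For Actb it was 1.15 to 1.25, 1.29 to 2.51 and 1.28 to 1.96, so that no stimulated array overlapped with rest. Comparisons with resting cells therefore moved with macrophage, stromal and neutrophil markers, with these ratios and with the CSF-1 source as well as with LPS. The part of each in the results was not tested. In such bulk samples, fewer cells of a type and less RNA per cell cannot be told apart.

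**Figure D1:**
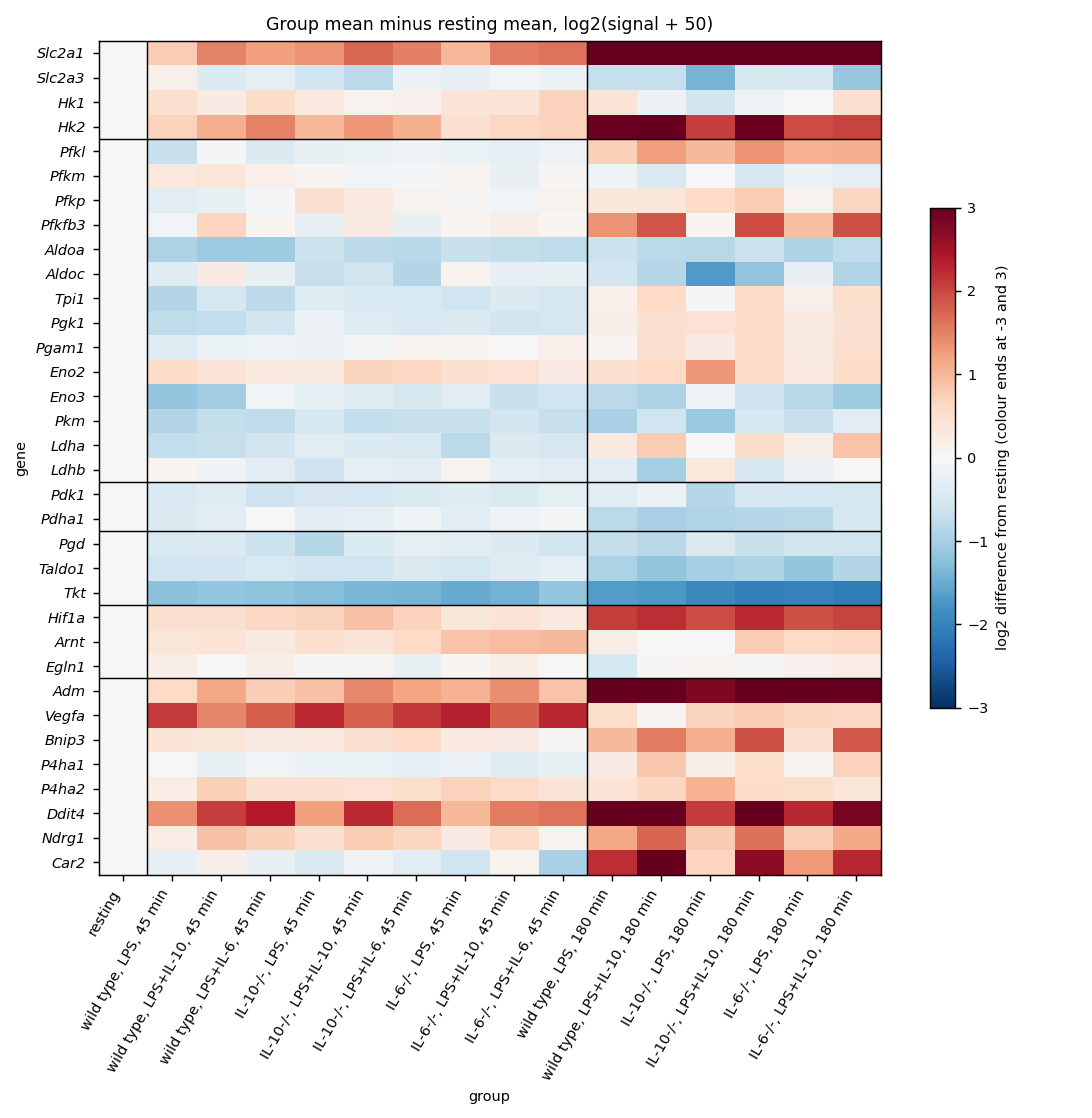
Difference of each group mean from the resting mean on the log2(signal + 50) scale, for 34 genes (rows, by role) and 16 groups (columns). Red is higher than resting cells and blue lower, with colours ending at 3 either way. Slc2a1, Hk2, Hif1a and Adm are red in all 6 groups at 180 min, Vegfa is reddest at 45 min, and Tkt is blue in every stimulated group.

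The promoters are shown for the genes that passed the test both for LPS at 180 min and for added IL-10, since these are the members the results below turn on. They are Car2, Bnip3, Ddit4, Pfkfb3 and Pkm, of which Car2 has no window in the table, like Ndrg1 and Slc2a3. For 31 of the 34 genes the RefSeq promoter table (GRCm38.p6) held 44 windows, here the 250 bases before an annotated transcript start. They are written 5' to 3' on the strand of the gene, in lower case, with capitals for ACGTG or GCGTG on either strand, the core of the hypoxia response element.

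Bnip3 (chr7:138909507-138909756, minus strand): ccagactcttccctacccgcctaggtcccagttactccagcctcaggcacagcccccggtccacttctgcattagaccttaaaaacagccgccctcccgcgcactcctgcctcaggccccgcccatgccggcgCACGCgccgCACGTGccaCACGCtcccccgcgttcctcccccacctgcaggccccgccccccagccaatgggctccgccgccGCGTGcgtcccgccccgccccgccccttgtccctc
Ddit4 (chr10:59951771-59952020, minus strand): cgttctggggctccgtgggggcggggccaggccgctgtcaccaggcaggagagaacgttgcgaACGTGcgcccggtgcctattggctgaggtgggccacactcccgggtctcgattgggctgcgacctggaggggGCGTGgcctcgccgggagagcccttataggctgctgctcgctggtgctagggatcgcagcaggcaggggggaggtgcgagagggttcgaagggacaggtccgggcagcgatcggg
Pfkfb3, first start (chr2:11553930-11554179, minus strand): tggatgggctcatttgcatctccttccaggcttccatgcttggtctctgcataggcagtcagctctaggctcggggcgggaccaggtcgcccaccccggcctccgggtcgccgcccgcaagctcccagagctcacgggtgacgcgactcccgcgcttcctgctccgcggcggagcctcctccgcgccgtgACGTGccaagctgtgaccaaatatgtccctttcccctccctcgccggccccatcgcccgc
Pfkfb3, second start (chr2:11502091-11502340, minus strand): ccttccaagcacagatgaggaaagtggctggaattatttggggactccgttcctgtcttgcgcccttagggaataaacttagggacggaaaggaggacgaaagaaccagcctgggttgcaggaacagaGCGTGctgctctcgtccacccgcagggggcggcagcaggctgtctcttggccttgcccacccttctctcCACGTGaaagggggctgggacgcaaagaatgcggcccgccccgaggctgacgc
Pkm, first start (chr9:59656326-59656575, plus strand): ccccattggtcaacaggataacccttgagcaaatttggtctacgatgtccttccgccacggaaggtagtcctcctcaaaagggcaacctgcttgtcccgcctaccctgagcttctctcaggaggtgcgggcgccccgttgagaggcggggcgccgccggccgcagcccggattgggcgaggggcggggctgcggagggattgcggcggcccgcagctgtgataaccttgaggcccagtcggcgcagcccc
Pkm, second start (chr9:59656977-59657226, plus strand): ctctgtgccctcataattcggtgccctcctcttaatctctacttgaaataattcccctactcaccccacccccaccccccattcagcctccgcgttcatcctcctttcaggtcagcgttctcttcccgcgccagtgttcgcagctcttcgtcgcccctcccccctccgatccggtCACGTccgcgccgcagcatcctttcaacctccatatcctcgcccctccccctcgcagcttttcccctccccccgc

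The Bnip3 window held 5 matches, at 117, 108, 107, 99 and 35 bases before the start, and the pair at 108 and 107 was a single ACGTG read on both strands as CACGTG. Ddit4 held matches at 187 and 115 bases before its start. Of the Pfkfb3 windows, the first held ACGTG at 60 bases, and the other held GCGTG at 122 bases and CACGTG at 53 bases. The first Pkm window held no match and the other held ACGTG at 75 bases. Over all members, 35 of 44 windows (79.5%) held ACGTG or GCGTG, against 38.6% of all 32851 windows of the table. ACGTG stood in 43.2% of member windows and 16.6% of all windows, and GCGTG in 59.1% and 28.2%. The median GC content was 60.4% in member windows and 52.4% in all, and its part in these shares was not tested. The members were chosen by name, in part as known HIF targets, so their shares are not independent of that choice. Some genes have several windows, which can overlap. A STAT element, TTCNNNGAA, stood in 2 of 44 member windows (4.55%) and in 7.02% of all windows, and in none of the windows printed here. These matches describe the letters of the windows and are not evidence of binding.

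After 45 min of LPS, wild-type cells had lower RNA for many glycolytic enzymes than resting cells and higher RNA for a few hypoxia targets. The test was limma on log2(signal + 50), with p-values adjusted by the Benjamini-Hochberg method over all probe sets and a call at an adjusted p under 0.05. Of 34 members, 9 fell and 4 rose, while 16.7% of all 8224 probe sets passed in either direction. The median change was -0.03 over the members and 0.03 over all probe sets. The 9 were Pfkl, Aldoa, Tpi1, Pgk1, Eno3, Pkm and Ldha of glycolysis and Taldo1 and Tkt of the pentose phosphate pathway, with changes from -0.57 (Taldo1) to -1.22 (Tkt). The 4 were Vegfa, Ddit4, Hk2 and Hif1a. A member's change is on the log2(signal + 50) scale throughout, which understates the change of genes with low signal.

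Vegfa, which encodes the main growth factor for blood vessels, was the member that rose most at 45 min. Its signal was 32.2 to 498.2 in the 4 resting arrays, 963.7 and 664.5 in wild type at 45 min, and 271.8 and 204.9 at 180 min. It rose by 2.11 ± 0.47 (SE) at 45 min (adjusted p = 0.00275). Its change from 45 to 180 min in wild type, -1.57 ± 0.54, did not pass (adjusted p = 0.0535). Over all groups, though, all 17 arrays at 45 min, at 395.8 to 1465.7, lay above all 11 arrays at 180 min, at 113.8 to 324.9. Over all probe sets, 6.19% had every 180 min array below every 45 min array. Without wild-type LPS 45 min replicate 1 the call at 45 min was lost, at 1.85 with an adjusted p of 0.0605.

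The 45 min calls leaned on single arrays. Tpi1, Pkm and Ldha kept their calls in every alternative run, including each array left out in turn. Their signals fell from 4290.7 to 5692.1, 12860.6 to 24887.6 and 6574.8 to 9061.5 at rest to 2479.0 and 2579.8, 9580.4 and 10180.1, and 5253.2 and 4382.3. None of these groups overlapped. Without wild-type LPS 45 min replicate 1 or 2, the number of members called was 6 and 5, in place of 13.

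After 180 min of LPS the direction differed between genes, and many glycolytic members were not called against rest. RNA for the glucose transporter GLUT1, for hexokinase 2 and for enzymes at the phosphofructokinase step rose. So did Hif1a and the hypoxia targets Adm, Bnip3, Ddit4, Ndrg1 and Car2. Pkm and Aldoa of glycolysis, Pdha1 and the pentose phosphate enzymes Pgd, Taldo1 and Tkt fell. In wild type against resting cells, 10 members rose and 6 fell, while 33.8% of all probe sets passed (14.4% up, 19.4% down). The share of members that fell was thus near that of all probe sets. The median was 0.21 over the members and -0.09 over all probe sets. Of these 16 calls, 12 were kept in every alternative and with each array left out. Both comparisons with rest use the same 4 resting arrays.

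**Figure D2:**
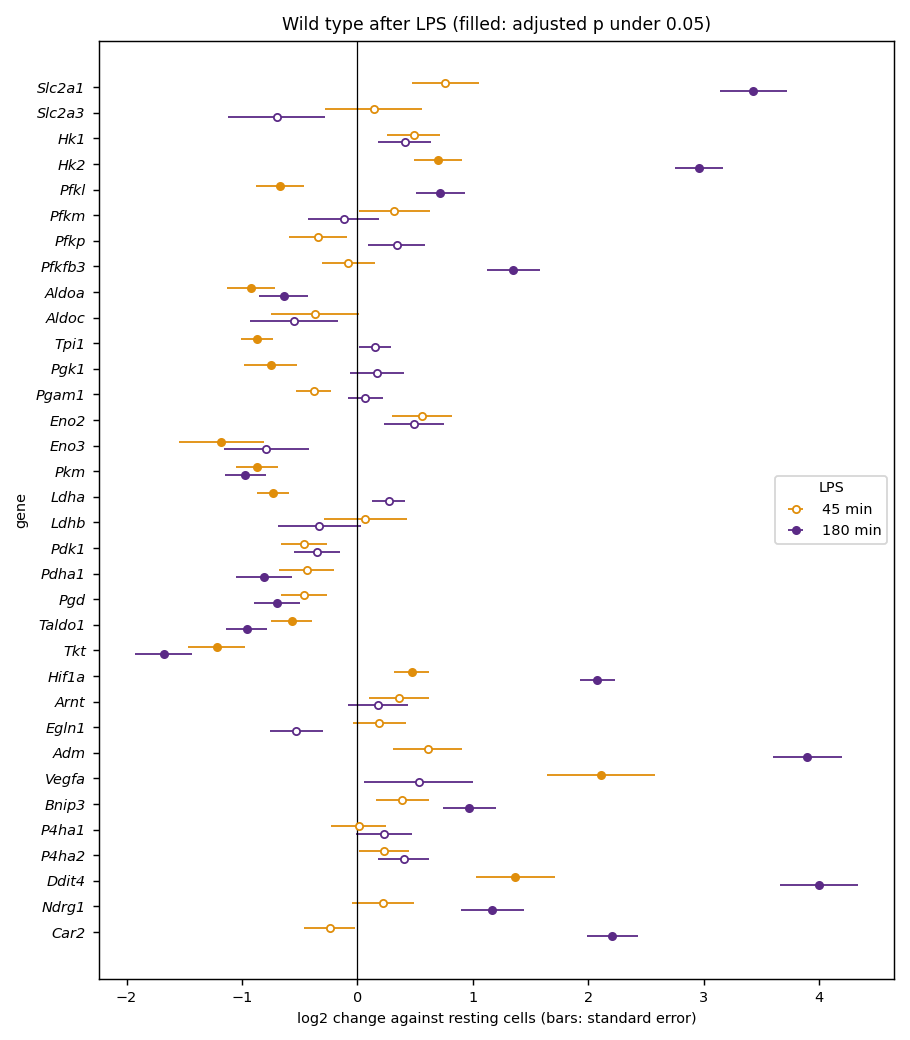
Change in wild-type cells after 45 min (orange) and 180 min (purple) of LPS against the 4 resting arrays, on the log2(signal + 50) scale, with standard errors. Filled points have an adjusted p under 0.05. Ddit4, Adm, Slc2a1 and Hk2 lie farthest right at 180 min, and Tkt farthest left.

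Slc2a1 encodes GLUT1, a glucose transporter of the cell surface. Its signal was 53.3, 171.5, 139.2 and 275.0 in resting cells, 314.3 and 244.8 after 45 min of LPS, and 1899.3 and 2177.8 after 180 min. The 180 min arrays stood far above the others, while 45 min overlapped with rest. The change at 180 min was 3.43 ± 0.29 against rest (adjusted p = 1.25e-09) and 2.67 ± 0.33 against 45 min (adjusted p = 2.25e-06). Slc2a3, the gene of the transporter GLUT3, had low signal in all arrays, from 44.7 to 343.5, and was called in no comparison.

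Hk2 encodes the inducible hexokinase, which traps glucose in the cell by phosphorylating it. It read 512.9, 472.0, 584.7 and 1002.2 at rest, 906.8 and 1168.2 at 45 min, and 4667.2 and 5605.3 at 180 min. The 180 min arrays did not overlap with any other, and Hk2 rose by 2.96 ± 0.21 against rest (adjusted p = 6.1e-11). Hk1, the constitutive hexokinase, read 6221.5 to 11556.4 at rest and 12369.4 and 11582.8 at 180 min and was not called.

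Phosphofructokinase is the main control point of glycolysis. Its liver-type subunit gene Pfkl read 992.3 to 2161.5 at rest, dipped to 795.1 and 877.6 at 45 min and reached 2316.0 and 2238.4 at 180 min. Pfkl rose by 1.39 ± 0.25 from 45 to 180 min (adjusted p = 0.000238). Its rise against rest, 0.72 ± 0.21 (adjusted p = 0.00994), was lost without wild-type LPS 180 min replicate 1 (adjusted p = 0.073) or replicate 2 (adjusted p = 0.0569). The muscle-type and platelet-type subunits, Pfkm and Pfkp, were not called against rest.

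Pfkfb3 encodes the enzyme that makes the sugar bisphosphate which activates phosphofructokinase. Its signal was 260.6, 273.1, 234.2 and 176.6 at rest, 173.8 and 273.4 at 45 min, and 745.1 and 604.6 at 180 min. Only the 180 min arrays stood apart among these 3 groups, with a rise of 1.35 ± 0.23 against rest (adjusted p = 7.34e-05). A different Pfkfb3 probe set gave 1.33 ± 0.41 (adjusted p = 0.0138).

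In the lower part of glycolysis, Tpi1 and Ldha fell at 45 min and were not called against rest at 180 min. Tpi1, for triosephosphate isomerase, read 2479.0 and 2579.8 at 45 min and 5095.1 and 5240.5 at 180 min, near its resting 4290.7 to 5692.1. It rose by 1.02 ± 0.16 between the times (adjusted p = 6.14e-05). Ldha, for the lactate dehydrogenase subunit that favours lactate, read 5253.2 and 4382.3 at 45 min and 9775.1 and 9520.3 at 180 min, against 6574.8 to 9061.5 at rest. It rose by 1.00 ± 0.17 between the times (adjusted p = 0.00012) and was not called against rest at 180 min.

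Pkm, for pyruvate kinase, was called lower at both times. It read 12860.6 to 24887.6 at rest and 9807.1 and 8650.6 at 180 min, with no overlap, and fell by 0.97 ± 0.18 (adjusted p = 0.000168). Its other probe set gave -0.36 ± 0.22, which did not pass (adjusted p = 0.223). The Aldoa probe sets also differed, at -0.64 ± 0.21 (adjusted p = 0.019) and 0.16 ± 0.22 (adjusted p = 0.609). The probe sets used for Pkm, Aldoa, Hif1a and Arnt are of kinds that the array's design marks as shared with related sequences, so signal from near-identical transcripts cannot be told apart there. Gapdh, seen here through its control probes, averaged 26902 at rest, 10918 after 45 min and 15156 after 180 min of LPS at the 3' probe set. At the 5' probe set it averaged 28909, 13628 and 21822. There the 180 min arrays (20442.5 and 23201.3) overlapped with rest (20423.2 to 39127.9). Gapdh was not tested.

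Between pyruvate and the mitochondrion, Pdha1, a subunit of pyruvate dehydrogenase, fell by 0.81 ± 0.24 at 180 min (adjusted p = 0.0115), a call that was lost without wild-type LPS 180 min replicate 2 (-0.33, adjusted p = 0.437). Pdk1, a kinase that inhibits that enzyme, was called in no comparison, at 241.6 to 655.4 over all grouped arrays.

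The pentose phosphate pathway branches off glycolysis to make NADPH and ribose, and its gene Tkt was the member that fell most. Tkt, for transketolase, read 3704.4, 6616.5, 4287.7 and 6228.0 at rest, 2544.6 and 1807.0 at 45 min, and 1679.5 and 1421.9 at 180 min. The 28 stimulated arrays, at 908.6 to 2544.6, all lay below the 4 resting ones, as they did for 3.78% of all probe sets. Tkt fell by 1.68 ± 0.25 at 180 min (adjusted p = 1.11e-05) and Taldo1, for transaldolase, fell by 0.96 ± 0.18 (adjusted p = 0.000176). Pgd, for phosphogluconate dehydrogenase, fell by 0.70 ± 0.20 (adjusted p = 0.00925). That call was lost without wild-type LPS 180 min replicate 2 (adjusted p = 0.105), and a weaker Pgd probe set gave 0.03 ± 0.49.

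Hif1a itself rose at both times. Its signal was 3620.4, 5332.2, 3639.4 and 3866.0 at rest, 5488.1 and 5801.8 at 45 min, and 15173.0 and 19654.1 at 180 min. The 3 groups did not overlap. The rise at 180 min was 2.08 ± 0.15 (adjusted p = 9.47e-11). The other Hif1a probe set gave 2.09 ± 0.18, and it too is of a kind marked as shared with related sequences. At 45 min it was 0.47 ± 0.15 (adjusted p = 0.0351), a call lost in 5 of 6 fits that left out an array, with adjusted p up to 0.195 without wild-type LPS 45 min replicate 2. Arnt, its partner, and Egln1, the oxygen sensor, were called in no comparison.

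Among the HIF targets, Ddit4 and Adm changed most. Ddit4, which encodes REDD1, an inhibitor of the growth kinase complex mTORC1, read 158.1, 100.2, 23.9 and 247.4 at rest, 381.7 and 357.1 at 45 min, and 2602.2 and 2480.9 at 180 min. The groups did not overlap, and every one of the 28 stimulated arrays exceeded the 4 resting ones (background 3.47%). Its rise was 4.0 ± 0.34 at 180 min (adjusted p = 1.5e-09). Adm, for the vasodilator peptide adrenomedullin, read 25.3, 121.9, 17.4 and 35.3 at rest, 151.0 and 49.8 at 45 min, and 1499.3 and 1198.7 at 180 min, a rise of 3.90 ± 0.30 (adjusted p = 3.03e-10).

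Car2, for a cytosolic carbonic anhydrase, was low until 180 min. It read 170.8, 184.4, 89.4 and 138.7 at rest, 101.2 and 123.9 at 45 min, and 850.0 and 822.3 at 180 min. Only the last group stood apart, with a rise of 2.21 ± 0.22 (adjusted p = 2.67e-08). Ndrg1, a stress-response gene, read 598.3 to 1776.8 at rest and 2163.0 and 2628.3 at 180 min, a rise of 1.17 ± 0.27 (adjusted p = 0.00173). Bnip3, for a receptor that directs mitochondria to autophagy, read 201.2 to 292.0 at rest and 572.8 and 482.3 at 180 min, a rise of 0.97 ± 0.23 (adjusted p = 0.00166). P4ha1 and P4ha2, for collagen prolyl hydroxylases, were not called.

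The comparison of 180 with 45 min of LPS uses no resting array, so the labelled CSF-1 source is the same in both groups. The stromal sum was 8230 to 8477 at 180 min and 9218 to 9721 at 45 min in wild type. The neutrophil sum was 3512 to 4226 at 180 min and 1129 to 1156 at 45 min, with Lcn2 (4.66 ± 0.39) and S100a8 (1.52 ± 0.43) called higher of 7 tested. The part of either in the result was not tested. In wild type, 12 members rose and 0 fell, while 13.9% of all probe sets passed. The median was 0.25 over the members and -0.14 over all probe sets. The 12 were Hk2, Pfkl, Pfkfb3, Tpi1, Pgk1, Ldha, Slc2a1, Hif1a, Adm, Ddit4, Ndrg1 and Car2, with Adm at 3.30 ± 0.35 and Car2 at 2.45 ± 0.26. Pgk1, for phosphoglycerate kinase (0.92 ± 0.27, adjusted p = 0.0216), and Ndrg1 (0.95 ± 0.32, adjusted p = 0.047) lost the call with any of the 4 arrays left out, with adjusted p of 0.0642 to 0.132 for Pgk1 and 0.0555 to 0.328 for Ndrg1. The other 10 kept it in every alternative.

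With IL-10 added to LPS the same interval held more calls, over more arrays. As the mean of the 3 genotypes, 6 arrays against 6, 16 members rose and 5 fell from 45 to 180 min, while 32.8% of all probe sets passed. The median was 0.16 over the members and -0.03 over all probe sets. Besides the 12 genes above, Bnip3 (1.41 ± 0.15), P4ha1 (0.93 ± 0.16), Pfkp (0.60 ± 0.17) and Pgam1 (0.59 ± 0.10) rose. Vegfa, Aldoc, Tkt, Pdha1 and Taldo1 fell, from -1.18 ± 0.31 (Vegfa) to -0.48 ± 0.12 (Taldo1). Of these 21 calls, 19 were kept in every alternative other than leaving out an array. In limma with wild type and IL-10-/- alone, Pfkp (adjusted p = 0.0619) and Aldoc (0.0518) were not called. Aldoc and Pdha1 also lost the call with some arrays left out. Over all alternatives they changed by -0.97 to -0.59 (Aldoc) and -0.69 to -0.39 (Pdha1). Over all treatments and genotypes, 9 members had all 11 arrays at 180 min above all 17 at 45 min (Hk2, Pfkl, Tpi1, Pgk1, Ldha, Slc2a1, Hif1a, Adm and Car2), as did 3.54% of all probe sets. Vegfa and Taldo1 were the only 2 members with all of them below, a share near the 6.19% of all probe sets.

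In IL-10-/- cells the rise from 45 to 180 min of LPS was called for fewer members. There, 8 rose and 3 fell, while 17.1% of all probe sets passed, with a median of 0.31 over the members and 0.03 over all. Slc2a1 rose by 2.02 ± 0.33, Hif1a by 1.29 ± 0.18 and Adm by 1.92 ± 0.35. Without IL-10-/- LPS 45 min replicate 1, or without IL-10-/- LPS 180 min replicate 1, the count fell to 5. Pfkfb3 read 206.5 and 173.7 at 45 min and 262.9 and 232.2 at 180 min, and Ddit4 read 291.6 and 365.8 and then 624.9 and 666.4, and neither was called. The difference between the genotypes was tested itself: 0 members passed in limma and 1.12% of all probe sets did, although 10 members had an unadjusted p under 0.05. Car2 came nearest, at -1.37 ± 0.36 (adjusted p = 0.0722), followed by Hk2 at -1.18 ± 0.34 (adjusted p = 0.135).

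**Figure D3:**
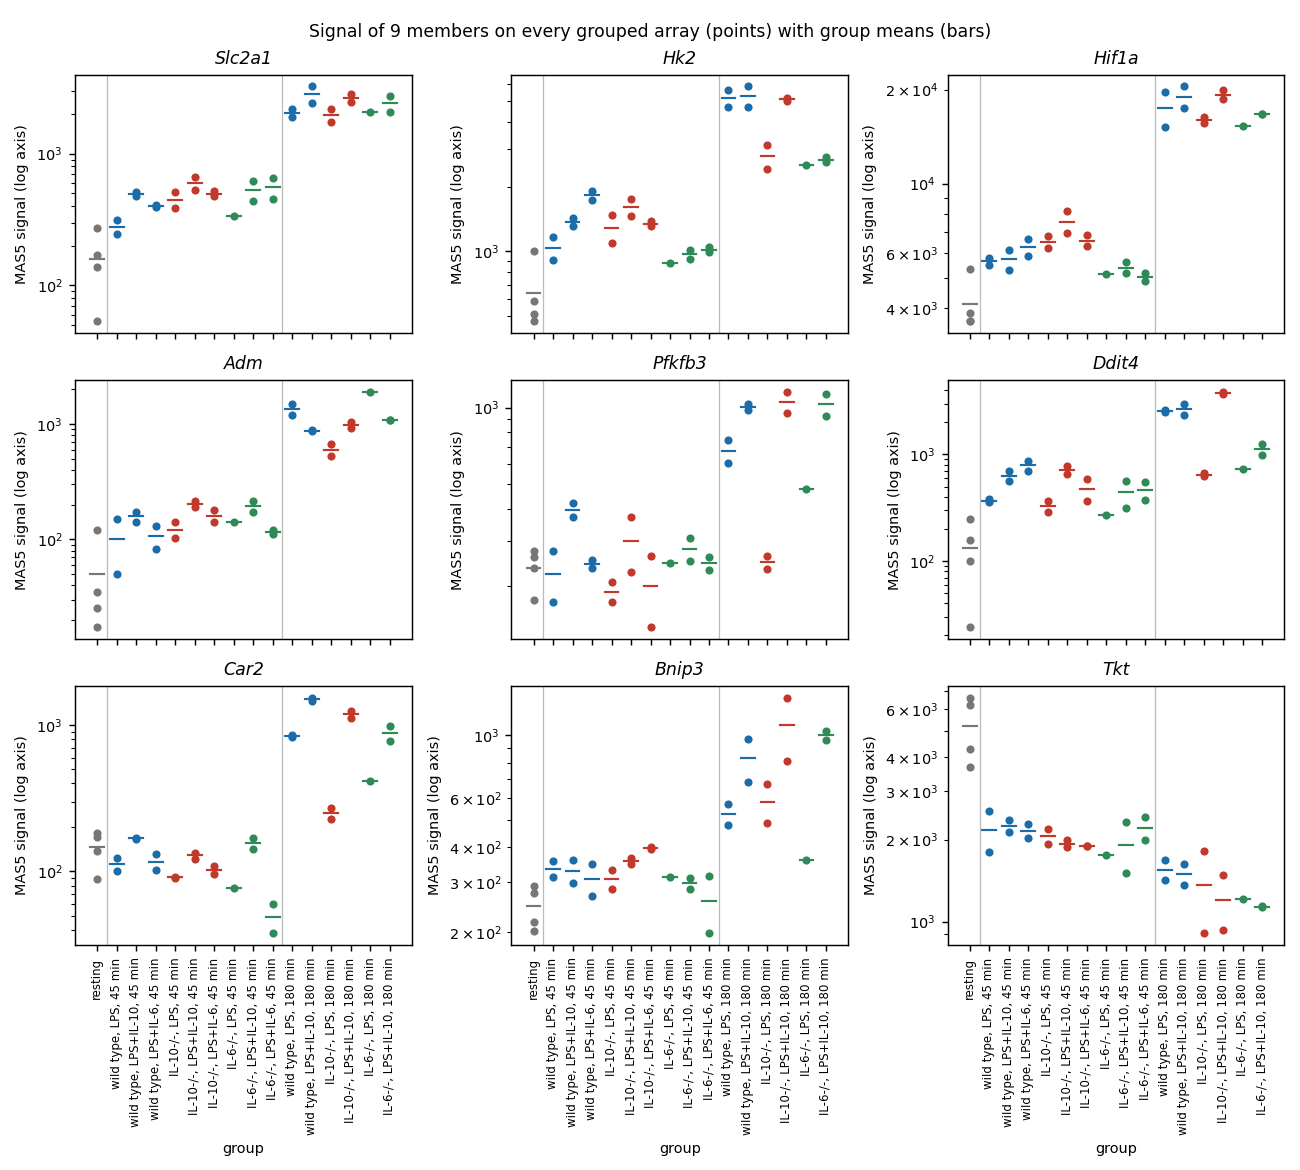
Signal of 9 members on each of the 32 grouped arrays (points, log axis) with group means (bars), for resting cells (grey), wild type (blue), IL-10-/- (red) and IL-6-/- (green), in the order rest, 45 min and 180 min. In Pfkfb3, Ddit4 and Car2 the IL-10-/- arrays with LPS alone at 180 min sit well below those with IL-10, while in Slc2a1 and Hif1a all arrays at 180 min lie close together.

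With IL-10 added, several hypoxia targets and glycolytic enzymes were higher at 180 min. As the mean of its effect in the 3 genotypes, 7 of 34 members rose and 0 fell, while 3.82% of all probe sets passed. The median was 0.19 over the members and -0.01 over all probe sets. The 7 were Car2, Pfkfb3, Ddit4, Bnip3, Ldha, Tpi1 and Pkm. The 3 genes with the largest rises under LPS besides Ddit4, namely Adm, Slc2a1 and Hk2, were not among them. The change was above 0 in all 3 genotypes for 16 members, in 2 for 9, in 1 for 5 and in 0 for 4.

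Car2 rose most. At 180 min it read 850.0 and 822.3 with LPS and 1534.3 and 1469.1 with IL-10 in wild type, 269.5 and 229.2 against 1124.1 and 1244.6 in IL-10-/-, and 415.9 against 979.5 and 782.2 in IL-6-/-. In each genotype the arrays with IL-10 were the higher ones. The mean change was 1.28 ± 0.16, or 2.43-fold (adjusted p = 8.42e-06).

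Pfkfb3 reached about the same signal in all genotypes once IL-10 was added. It read 745.1 and 604.6 with LPS and 982.1 and 1029.3 with IL-10 in wild type, 262.9 and 232.2 against 950.7 and 1149.8 in IL-10-/-, and 481.1 against 1130.2 and 927.5 in IL-6-/-. All 6 arrays with IL-10 lay above all 5 with LPS alone, and the mean change was 1.15 ± 0.17, or 2.22-fold (adjusted p = 7.38e-05). The other Pfkfb3 probe set gave 1.19 ± 0.30 (adjusted p = 0.0183).

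Bnip3 read 572.8 and 482.3 with LPS and 971.9 and 684.5 with IL-10 in wild type, 488.2 and 671.6 against 814.3 and 1361.5 in IL-10-/-, and 361.5 against 966.8 and 1038.3 in IL-6-/-. The 6 arrays with IL-10 again lay above the 5 without, and the mean change was 0.92 ± 0.16 (adjusted p = 0.000744). Bnip3 was also the member whose IL-10 effect differed most between the times, by 0.89 ± 0.23 (180 minus 45 min), which did not pass (adjusted p = 0.061).

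Of the glycolytic enzymes, Ldha and Tpi1 rose in addition. Ldha read 9775.1 and 9520.3 with LPS and 12954.0 and 14528.8 with IL-10 in wild type, 8482.2 and 7439.5 against 11593.0 and 11838.8 in IL-10-/-, and 9085.9 against 15117.0 and 13855.9 in IL-6-/-. Its change was 0.51, 0.56 and 0.67 in these genotypes and 0.58 ± 0.10 as their mean (adjusted p = 0.000873). Tpi1 read 5095.1 and 5240.5 against 6916.2 and 7253.2 in wild type, 4079.4 and 4848.4 against 6819.7 and 7146.6 in IL-10-/-, and 5182.6 against 6252.1 and 7235.4 in IL-6-/-. Its mean change was 0.49 ± 0.10 (adjusted p = 0.00352).

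Pkm was a marginal call. It read 9807.1 and 8650.6 against 11111.5 and 12878.3 in wild type, 8522.1 and 8234.4 against 12011.1 and 13817.1 in IL-10-/-, and 11100.6 against 14821.6 and 14256.9 in IL-6-/-. The mean change was 0.46 ± 0.13 (adjusted p = 0.0477). The call was lost with any of 10 arrays left out (adjusted p from 0.0552 without wild-type LPS with IL-10 180 min replicate 1 to 0.136 without IL-10-/- LPS with IL-10 180 min replicate 2), and Pkm's other probe set gave 0.19 ± 0.16.

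Ddit4 differed by genotype. With LPS and with IL-10 it read 2602.2 and 2480.9 against 2357.7 and 3006.0 in wild type, 624.9 and 666.4 against 3857.7 and 3676.9 in IL-10-/-, and 729.9 against 1252.5 and 981.3 in IL-6-/-. The wild-type groups overlapped and the IL-10-/- groups were far apart. The mean change was 1.03 ± 0.25 (adjusted p = 0.0134), and it was not called with a pseudocount of 10 (adjusted p = 0.084). The effect in IL-10-/- exceeded that in wild type by 2.39 ± 0.56 (adjusted p = 0.0457). Ddit4 was the only member to pass this test, which 0.559% of all probe sets passed, and the call was lost with any of 8 arrays left out, with adjusted p of 0.0889 (wild-type LPS with IL-10 180 min replicate 2) to 0.185 (IL-10-/- LPS with IL-10 180 min replicate 1).

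**Figure D4:**
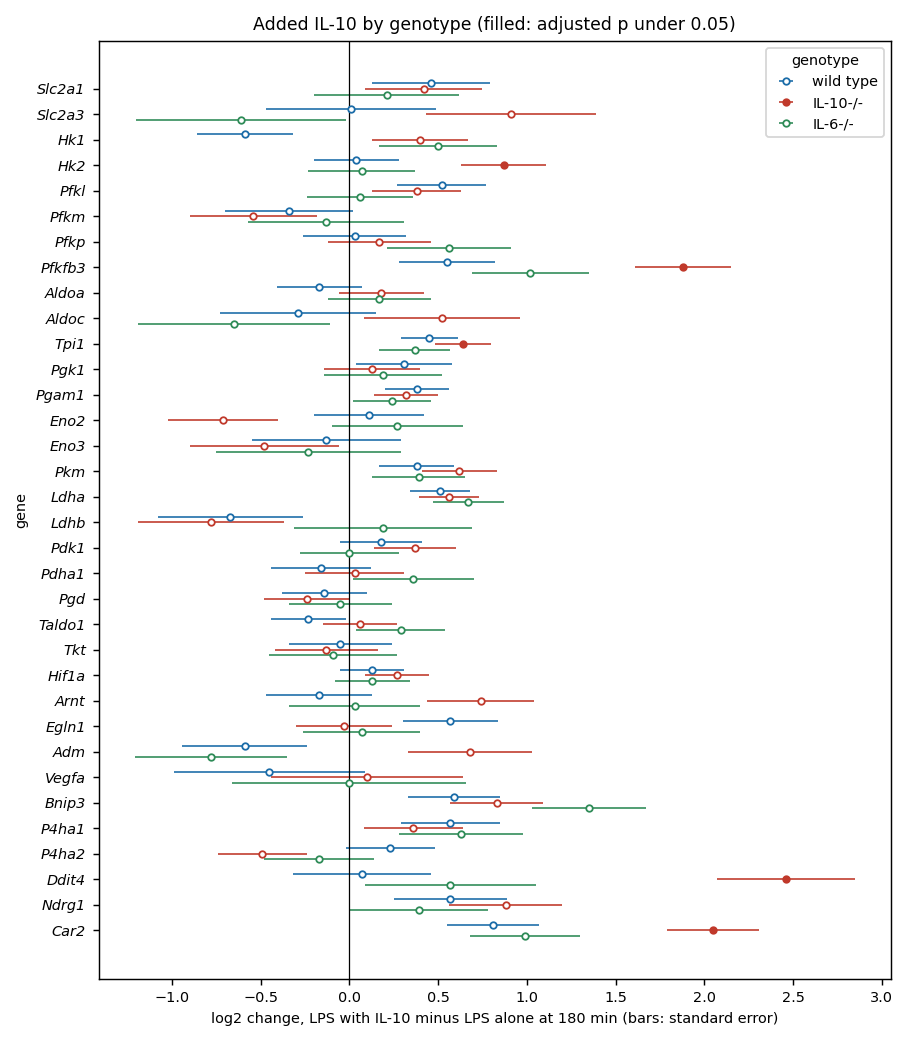
Change at 180 min from LPS alone to LPS with IL-10 in wild type (blue), IL-10-/- (red) and IL-6-/- (green), on the log2(signal + 50) scale with standard errors. Filled points have an adjusted p under 0.05. The 5 filled points, Hk2, Pfkfb3, Tpi1, Ddit4 and Car2, are all IL-10-/-.

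By genotype, 5 of 34 members passed in IL-10-/- cells and 0 in the others, although only Ddit4 passed the test of the difference. In IL-10-/- 5 members rose and 0 fell, while 3.54% of all probe sets passed: Ddit4 by 2.46 ± 0.39, Car2 by 2.05 ± 0.26, Pfkfb3 by 1.88 ± 0.27, Hk2 by 0.87 ± 0.24 and Tpi1 by 0.64 ± 0.16. Hk2 read 3129.0 and 2426.1 with LPS and 5148.2 and 5009.1 with IL-10 there, with no overlap (adjusted p = 0.0458), and lost the call with any of its 4 arrays left out (adjusted p = 0.071 to 0.469). Tpi1 (adjusted p = 0.0186) lost it without IL-10-/- LPS replicate 1 (0.293), or without IL-10-/- LPS with IL-10 replicate 1 (0.108) or 2 (0.181). The count in IL-10-/- was 3 without LPS replicate 1 or without LPS with IL-10 replicate 2. In wild type 0 of 34 passed in limma, with 8 at an unadjusted p under 0.05, and 0.134% of all probe sets passed. In IL-6-/-, with 1 array of LPS alone, 0 passed, with 4 at an unadjusted p under 0.05, and 0.207% of all probe sets passed. For Hk2 the changes were 0.04 ± 0.24 in wild type and 0.07 ± 0.30 in IL-6-/-. Apart from Ddit4, the difference between IL-10-/- and wild type did not pass for any member, the nearest being Pfkfb3 at 1.33 ± 0.38 (adjusted p = 0.158) and Car2 at 1.24 ± 0.36 (adjusted p = 0.181).

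HIF-1alpha and the glucose transporter were not called under IL-10. Hif1a read 15173.0 to 19654.1 in the 5 arrays with LPS alone at 180 min and 16757.2 to 20500.7 in the 6 with IL-10, and Slc2a1 read 1751.6 to 2177.8 and 2089.7 to 3246.7. Both pairs of groups overlapped. Adm changed by -0.59 ± 0.35 in wild type, 0.68 ± 0.35 in IL-10-/- and -0.78 ± 0.43 in IL-6-/-, none of which passed. In wild type it read 1499.3 and 1198.7 against 868.1 and 884.0, in IL-10-/- 524.1 and 672.2 against 924.4 and 1048.0, and in IL-6-/- 1887.8 against 1077.7 and 1086.6.

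P4ha1 and Pgam1 (for phosphoglycerate mutase) did not pass either, at 0.52 ± 0.18 (adjusted p = 0.125) and 0.31 ± 0.11 (adjusted p = 0.149), although their arrays with IL-10 lay above all with LPS alone. With Pfkfb3, Tpi1, Pkm, Ldha and Bnip3 this made 7 members with all 6 arrays with IL-10 above all 5 without, and 0 below. Over all probe sets the shares were 1.12% above and 1.37% below. Neutrophil markers also moved with IL-10: their sum over 10 genes was 1566 to 4683 with LPS alone and 5204 to 9698 with IL-10 at 180 min. Of 7 tested neutrophil markers 2 rose with IL-10, S100a8 and Lcn2, while Elane and Mpo stayed between 81.8 and 436.4 and between 15.3 and 146.4. The stromal sum was 5567 to 9425 with LPS alone and 5956 to 10900 with IL-10. The erythroid sum over 7 genes was 1428 to 2278 with LPS alone and 1798 to 2785 with IL-10, and Hba-a1 stayed between 36.5 and 544.2. The Gapdh 3' to 5' ratio was 0.646 to 0.722 and 0.614 to 1.09, and the Actb ratio 1.28 to 1.96 and 1.32 to 1.95. The part of these in the results was not tested.

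After 180 min of LPS alone, cells labelled IL-10-/- had less RNA for 2 hypoxia targets, Ddit4 and Car2, for Pfkfb3 and for both hexokinases than wild type. In all, 5 members were lower and 0 higher in IL-10-/-, while 2.87% of all probe sets passed. The median was -0.10 over the members and 0.04 over all probe sets. This comparison shares the IL-10-/- arrays with LPS alone with the IL-10 comparison above, so the 2 are not independent. The 1 IL-6-/- array with LPS alone at 180 min also lay below wild type for these 5 genes. It read 729.9 for Ddit4, 415.9 for Car2 and 481.1 for Pfkfb3. IL-6-/- against wild type with LPS alone was not tested, so whether the lower RNA is particular to IL-10-/- is not known.

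Ddit4 was 3.73-fold lower, by -1.90 ± 0.39 (adjusted p = 0.00529), at 624.9 and 666.4 against 2602.2 and 2480.9 in wild type. Car2 was 2.97-fold lower, by -1.57 ± 0.26 (adjusted p = 4e-04), at 269.5 and 229.2 against 850.0 and 822.3. Pfkfb3 was 2.43-fold lower, by -1.28 ± 0.27 (adjusted p = 0.00614), at 262.9 and 232.2 against 745.1 and 604.6. None of these groups overlapped, and the IL-10-/- arrays of Pfkfb3 lay within the resting range of 176.6 to 273.1. Of the 5, Car2 alone kept its call in every alternative. The count was 2 without either wild-type array or IL-10-/- replicate 1 and 3 without IL-10-/- replicate 2. Ddit4 lost it without wild-type LPS 180 min replicate 2 (adjusted p = 0.0542) or IL-10-/- replicate 1 (0.0575), and Pfkfb3 without wild-type replicate 1 (0.0845) or IL-10-/- replicate 2 (0.084).

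Both hexokinases were at the threshold. Hk1 read 6473.9 and 5716.3 in IL-10-/- and 12369.4 and 11582.8 in wild type, a difference of -0.97 ± 0.27 (adjusted p = 0.0489). Hk2 read 3129.0 and 2426.1 against 4667.2 and 5605.3, a difference of -0.88 ± 0.24 (adjusted p = 0.0497). The groups did not overlap, but leaving out any of the 4 arrays lost both calls, with adjusted p of 0.149 to 0.322 for Hk1 and 0.0825 to 0.438 for Hk2. The neutrophil marker sum was 1566 to 1763 in IL-10-/- and 3512 to 4226 in wild type. Of 7 tested markers 1 was called lower, Lcn2, with means of 406.9 and 2636. The others went both ways: S100a8 averaged 236.1 and 442.8, Elane 359.9 and 245.6, and Camp 355.7 and 242.9. The dendritic cell sum was 1552 to 1827 in IL-10-/- and 908.2 to 1287 in wild type. The part of these markers in the results was not tested.

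**Figure D5:**
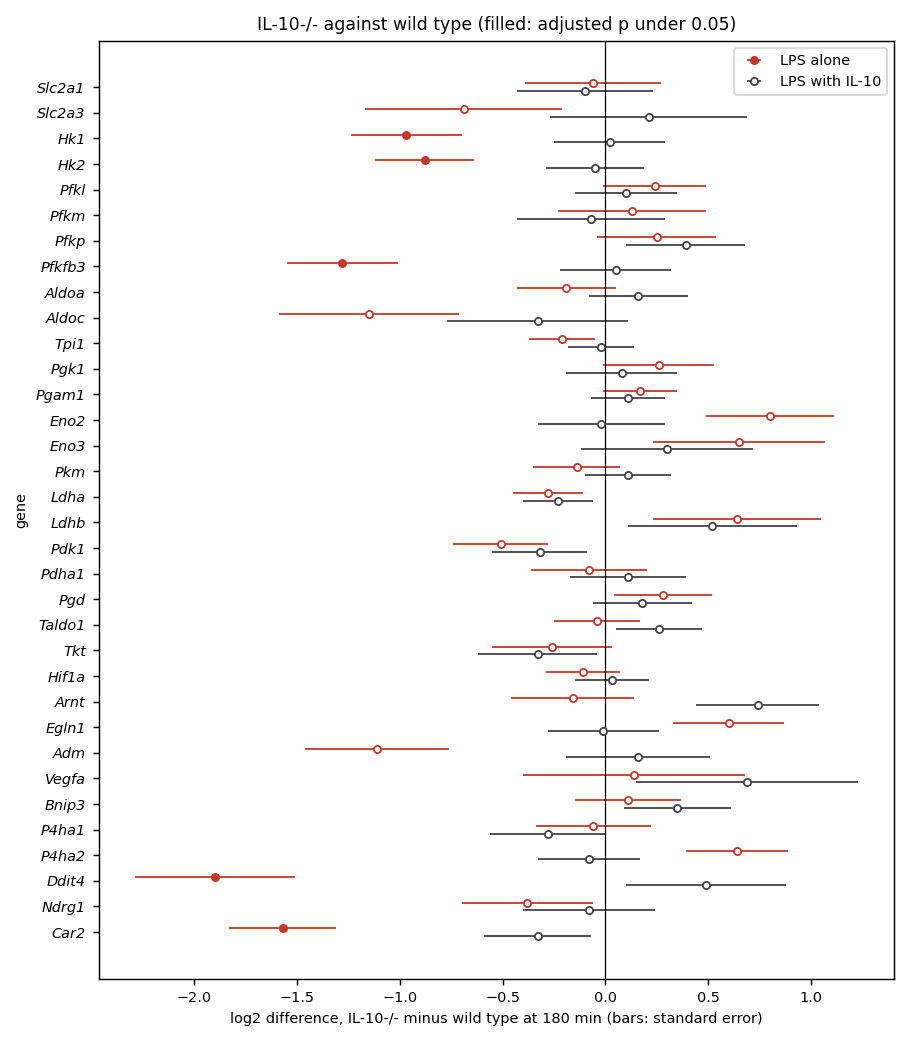
Difference between IL-10-/- and wild type after 180 min of LPS alone (red) and of LPS with IL-10 (dark grey), on the log2(signal + 50) scale with standard errors. Filled points have an adjusted p under 0.05. Ddit4, Car2, Pfkfb3, Hk1 and Hk2 are filled on the left with LPS alone, and no point is filled once IL-10 was added.

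The other comparisons between genotypes gave no call. At 180 min of LPS with IL-10, 0 members passed in limma between IL-10-/- and wild type (1 at an unadjusted p under 0.05), while 0.219% of all probe sets did. Pfkfb3 then read 950.7 and 1149.8 in IL-10-/- and 982.1 and 1029.3 in wild type. At 45 min of LPS alone 0 passed (5 at an unadjusted p under 0.05), and 0.377% of all probe sets did. Between IL-6-/- and wild type with LPS and IL-10 at 180 min 0 passed (5 at an unadjusted p under 0.05), and 0.182% of all probe sets did. The nearest was Hk2, at 2743.9 and 2590.4 in IL-6-/- against 4707.1 and 5848.4 (-0.96 ± 0.24, adjusted p = 0.116; 1 member was called with a pseudocount of 200 or without resting replicate 4), followed by Ddit4 at -1.23 ± 0.39 (adjusted p = 0.272).

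At 45 min neither cytokine moved a member past the test. For IL-10, 0 members passed in limma (6 at an unadjusted p under 0.05), while 1.03% of all probe sets did. Ddit4 changed by 0.76 ± 0.25 (adjusted p = 0.286), Slc2a1 by 0.56 ± 0.21 (adjusted p = 0.512) and Car2 by 0.49 ± 0.16 (adjusted p = 0.299). For IL-6, 0 passed (2 at an unadjusted p under 0.05), while 0.547% of all probe sets did, and Ddit4 changed by 0.70 ± 0.25 (adjusted p = 0.665). The difference of the IL-10 effect between 180 and 45 min passed for 0 members (8 at an unadjusted p under 0.05) and for 1.18% of all probe sets.

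Of the 34 members, 27 were called in at least 1 of the 18 comparisons. The 7 that were called in none were Pfkm, Ldhb, Slc2a3, Pdk1, Arnt, P4ha2 and Egln1. Their medians over the grouped arrays ran from 144.8 (Ldhb) to 675.1 (P4ha2), and the lowest adjusted p of any of them was 0.079 (Egln1).

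Other genes of the same pathways were counted from lists of their own. The shares of all probe sets that passed, to set beside these counts, were 33.8% at 180 min of LPS against rest (14.4% up, 19.4% down), 13.9% from 45 to 180 min, 3.82% under IL-10 as the mean of the genotypes and 2.87% between IL-10-/- and wild type at 180 min of LPS. The list for the citric acid cycle, which burns the acetyl groups made from pyruvate, held 22 tested genes. Of these, 10 fell and 1 rose in wild type after 180 min of LPS against rest, with a median of -0.56 (-0.09 over all probe sets). The 1 that rose was Me1 (1.08 ± 0.28, adjusted p = 0.0044), a cytosolic malic enzyme that is not part of the cycle itself. Sdhb, a subunit of succinate dehydrogenase, fell by 1.80 ± 0.22 (adjusted p = 6.12e-07), Idh2, the mitochondrial isocitrate dehydrogenase, fell by 1.67 ± 0.30 (adjusted p = 9.18e-05), and Fh1, fumarase, fell by 1.38 ± 0.26 (adjusted p = 0.000165). Between 45 and 180 min 1 of 22 fell and 0 rose. Under IL-10 (mean of the genotypes), and between IL-10-/- and wild type at 180 min of LPS, 0 of 22 passed.

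Of 31 tested hypoxia targets outside the members, 9 rose and 5 fell at 180 min against rest, with a median of 0.19, where 33.8% of all probe sets passed. Errfi1, a feedback inhibitor of growth factor receptors, rose by 4.39 ± 0.20 and Lox, a collagen cross-linking enzyme that is also a stromal marker here, by 3.54 ± 0.36. Cxcr4, a chemokine receptor, fell by 4.87 ± 0.28 (adjusted p = 1.1e-12). From 45 to 180 min 5 rose and 3 fell. Under IL-10, 3 rose and 2 fell: Nos2, the inducible nitric oxide synthase, by 0.99 ± 0.24 (adjusted p = 0.0167), and Bhlhe40, a transcription factor, by 0.72 ± 0.16 (adjusted p = 0.00564), rose, while Plaur, the urokinase receptor, fell by 0.65 ± 0.11 (adjusted p = 0.000496). In IL-10-/- against wild type, 2 were higher and 0 lower: Pam, a peptide-amidating enzyme, by 1.34 ± 0.30, and Plaur by 0.70 ± 0.18.

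Among 9 tested regulators of HIF, Cited2 was high in the IL-10-/- arrays in which Ddit4, Car2 and Pfkfb3 were low. CITED2 is known to compete with HIF-1alpha for the coactivators CBP and p300. Whether Cited2 had a part in the levels of these genes was not tested. In the IL-6-/- array with LPS alone at 180 min, Ddit4 (729.9), Car2 (415.9) and Pfkfb3 (481.1) also lay below wild type, with Cited2 at 1101.1. Cited2 read 555.8 to 1807.5 at rest and, in wild type, 4460.3 and 4093.8 at 45 min and 812.7 and 728.2 at 180 min. In IL-10-/- it read 5551.4 and 4805.3 at 45 min and 5494.8 and 5391.6 at 180 min with LPS alone, and 889.8 and 788.1 at 180 min with IL-10. It was thus high at 45 min in both genotypes and high at 180 min in the IL-10-/- arrays without IL-10, while the IL-6-/- arrays with LPS alone read 6192.5 at 45 min and 1101.1 at 180 min. With IL-10 at 45 min it already read 1589.9 to 2334.7, a change of -1.41 ± 0.20 as the mean of the genotypes (adjusted p = 7.12e-05), at a time when no member passed. At 180 min of LPS it was higher in IL-10-/- than in wild type by 2.75 ± 0.32 (adjusted p = 4.42e-06). Added IL-10 lowered it by 2.63 ± 0.32 in IL-10-/-, more than in wild type (-2.30 ± 0.45 for the difference, adjusted p = 0.0101). Of the 9 regulators, 1 fell and 0 rose under IL-10 as the mean of the genotypes, 1 was higher and 0 lower in IL-10-/-, 2 fell from 45 to 180 min in wild type, the other being Arntl, and 0 passed at 180 min against rest.

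The remaining lists were short. For glycogen and gluconeogenesis, 2 of 13 rose and 3 fell at 180 min against rest, with Pck2, a mitochondrial enzyme of gluconeogenesis, at -2.23 ± 0.32, Gpd2, the mitochondrial glycerophosphate dehydrogenase, at 1.95 ± 0.31 and Pgm2 at 1.14 ± 0.27. From 45 to 180 min 1 rose (Gpd2) and 1 fell (Pck2), under IL-10 1 rose (Gyg, the primer of glycogen synthesis, 0.63 ± 0.17) and between the genotypes 0 passed. Of 5 genes of the pyruvate dehydrogenase group, Dld (1.72 ± 0.22) and Pdk4 (0.85 ± 0.31) rose at 180 min against rest and Dld rose from 45 min. Of 5 further pentose phosphate and NADPH genes, Gsr, glutathione reductase, rose (1.24 ± 0.23) and Pgls, of the oxidative branch, fell (-1.10 ± 0.20) against rest, and Gsr rose from 45 min. Of 4 sugar and lactate transporters, Slc2a8 fell (-0.67 ± 0.20) against rest. Of 2 further glycolysis genes 0 passed in these comparisons, and none of the last 4 groups had a call under IL-10 or between the genotypes.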

How the data were processed

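RNA of 34 mouse macrophage cultures had been measured on Affymetrix arrays with 12488 probe sets. The deposited values are intensities made with MAS5, per the submitters' processing notes, whose version is not given in the sources used here. The authors had scaled each array to 500, since 2% trimmed means ran from 500.3 to 500.4. No further scaling was done. Gene names came from the platform table, where 10855 probe sets carry 1 symbol, 396 several and 1237 are not listed.

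After the 66 controls were left out, 8224 probe sets that reached a signal of 200 on 2 or more grouped arrays were tested. Values were turned into log2(signal + 50), and group means for the 16 groups were fitted to the 32 arrays with limma 3.58.1 (lmFit, eBayes with intensity trend; R 4.3.3), which left 16 residual degrees of freedom. P-values are 2-sided, with Benjamini-Hochberg adjustment across all 8224 in each comparison. A call means an adjusted p under 0.05. In all, 2 arrays entered no comparison: 1 title gives no genotype, and for 1 IL-6-/- array title and protocol disagree on the time.

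The members, the gene lists and the tests were chosen with earlier results of these data known, so the counts are not independent evidence. Array values are given for members that passed under IL-10 at 180 min (mean of genotypes or IL-10-/-), between IL-10-/- and wild type at 180 min of LPS, or with a change over 1 (log2) in wild type at 180 min of LPS against rest or 45 min. Up to 3 genes per list and comparison are named, those with the largest changes that passed, and Me1 besides. Alternatives were pseudocounts of 10 and 200, no filter or a filter at 500, quantile normalization, eBayes without trend, a replicate block, the mean of a gene's probe sets, wild type and IL-10-/- alone, resting replicate 4 left out, and each array left out in turn. Of 9 further tested probe sets of members, 0 passed in the opposite direction.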

Additional observations from a re-analysis of the deposited data

Results flagged for a closer look

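In the 4 resting arrays, 4 of 34 members had an array far from the other 3, where chance gives about 1 in 20. Aldoa read 16054.9 in resting replicate 2 against 10932.3 to 11744.5 in the others, Tpi1 read 5692.1 against 4290.7 to 4458.3, and Hif1a read 5332.2 against 3620.4 to 3866.0, all 3 high in the same array. Eno2 read 190.1 in resting replicate 4 against 100.9 to 108.0. Without resting replicate 2, Aldoa was no longer called at 180 min (adjusted p = 0.0603). Over all tested probe sets, resting replicate 4 had a residual SD of 0.531 and the other resting arrays 0.402 to 0.423.

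The effect of IL-10 on Ddit4 at 180 min was larger in IL-10-/- than in wild type by 2.39 on the log2 scale (adjusted p = 0.0457 for the difference).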

How the results depend on the processing

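Of 91 calls of members over all comparisons, 56 were kept in every alternative, 72 in every alternative other than leaving out an array, and 0 changed direction. The number of members called in IL-10-/- against wild type at 180 min of LPS (5) was 3 with a pseudocount of 10, without the filter or without the trend, and 2 to 3 with an array left out. For IL-10 in IL-10-/- at 180 min (5) it was 3 with quantile normalization or without the trend and 3 to 4 with an array left out. For the difference of that effect from wild type (1) it was 0 with a pseudocount of 10, without the filter, without the trend and with any array left out (0 to 0), and 2 with the mean of probe sets. For the difference of the IL-10 effect between the times (0) it was 1 without the trend, with the filter at 500, the mean of probe sets, the replicate block, wild type and IL-10-/- alone or resting replicate 4 left out, 2 with a pseudocount of 200, and 0 to 1 with an array left out. For the difference of the LPS time change between IL-10-/- and wild type (0) it was 1 without the trend, with the mean of probe sets or quantile normalization, 2 without resting replicate 4 and 3 with a pseudocount of 200. For IL-10 in IL-6-/- (0) it was 1 with a pseudocount of 200, and for IL-6-/- against wild type (0) it was 1 with that pseudocount or without resting replicate 4. With an array left out, LPS at 45 min (13) gave 5 to 13 and 180 against 45 min in IL-10-/- (11) gave 5 to 8. The cause of these differences was not tested. Same-numbered arrays of a genotype deviated together by correlations of 0.0204 to 0.441 over 23 pairs, all above 0, with 13 over 0.1 (0.148 to 0.441 in the 3 IL-6-/- pairs). The Actb 3' to 5' ratio was higher in replicate 1 in 13 of 13 stimulated groups with 2 arrays, so the numbers may mark something shared, which the labels do not name. They were not taken as pairs, since not every correlation was over 0.1. With the replicate block, 7 members were called for IL-10 at 180 min and 16 for LPS at 180 min, as without it.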

Other observations

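The 2 arrays outside the groups gave these values. The 45 min LPS array without a genotype in its title read 423.3 for Slc2a1, 853.0 for Hk2, 5045.0 for Hif1a, 118.6 for Adm, 1039.4 for Vegfa, 337.3 for Pfkfb3, 242.1 for Ddit4 and 78.5 for Car2. The IL-6-/- array with LPS whose time is in doubt read 1874.4 for Slc2a1, 2486.8 for Hk2, 15405.0 for Hif1a, 1809.6 for Adm, 167.4 for Vegfa, 528.7 for Pfkfb3, 904.8 for Ddit4 and 406.0 for Car2.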
